A study of Mus musculus with 8 samples.

Results

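The heme biosynthesis genes examined here were 8 enzymes of the pathway (Alas1, Alas2, Alad, Uros, Urod, Cpox, Ppox and Fech) and the mitochondrial carrier Slc25a38, chosen by gene name. All 9 had a row in the gene table, which holds 54532 genes, and 8 of the 9 were among the 13560 genes with enough reads to be tested. One enzyme step, between those of Alad and Uros, was not analysed here.

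Heme is built from glycine and succinyl-CoA by a chain of enzymes that starts inside the mitochondrion, passes through the cytosol and ends again in the mitochondrion, where iron is inserted into the porphyrin ring. Every cell makes some heme for its cytochromes and other hemoproteins, while maturing red cells make far more of it for hemoglobin. The first step is run by different genes in these settings: ALAS1 serves most tissues, and ALAS2 is the erythroid enzyme.

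The 8 RNA-Seq libraries came from bone marrow LSK cells (Lin- SCA-1+ C-KIT+, the fraction that contains hematopoietic stem cells) of C57BL/6 mice 8 to 12 weeks old. All mice were Zeb1-/-, made by giving pIpC to Zeb1 fl/fl;Mx1-Cre animals, and cells were taken 14 days after the last dose. The cells were separated by surface EpCAM, an epithelial adhesion molecule, into 4 Zeb1-/- EpCAM+ and 4 Zeb1-/- EpCAM- libraries. Both fractions therefore carry the same deletion, no control mice are included, and Mx1-Cre also deletes in nonhematopoietic cells of the host. The comparison asks how EpCAM+ and EpCAM- LSK cells differ after Zeb1 loss, and a difference cannot be assigned to the deletion.

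Libraries held 15225714 to 17073546 counted reads in EpCAM+ and 14114491 to 15929923 in EpCAM-. Values below are CPM, read counts scaled to a common library size with edgeR's trimmed mean of M values (TMM), and 3 counts corresponded to 0.168 to 0.222 CPM. The sort was visible in the RNA, with Epcam at 161 to 234 CPM in EpCAM+ and 1.25 to 8.99 CPM in EpCAM-. Zeb1 itself still gave 14.8 to 23.7 CPM in EpCAM+ and 9.49 to 14.0 CPM in EpCAM-, and without control mice these reads do not check the deletion. Of the genes behind the LSK gate, Kit was at 244 to 328 CPM in EpCAM+ and 155 to 245 CPM in EpCAM-. Ly6a, which encodes SCA-1, was at 116 to 351 CPM and 15.7 to 71.7 CPM, respectively. Both fractions came out of the same gate, so these levels differ between cells that were all sorted as LSK.

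Before the values, sequence from 3 members is shown, picked by their values in these libraries. Cpox had the largest fold difference and Ppox the smallest, and Alas2 was close to silent. These stretches lie directly upstream of the RefSeq start of Cpox (GRCm38.p6, chr16:58669958-58670207, plus strand) and Ppox (chr1:171281187-171281436, minus strand), and upstream of the annotated gene of Alas2 (chrX:150547167-150547374, plus strand). They are written 5′ to 3′, and capitals mark letters that match the GATA motif (AGATAA or AGATAG, or the same with T as first base, on either strand), the letters bound by GATA1 and its relatives.
Cpox: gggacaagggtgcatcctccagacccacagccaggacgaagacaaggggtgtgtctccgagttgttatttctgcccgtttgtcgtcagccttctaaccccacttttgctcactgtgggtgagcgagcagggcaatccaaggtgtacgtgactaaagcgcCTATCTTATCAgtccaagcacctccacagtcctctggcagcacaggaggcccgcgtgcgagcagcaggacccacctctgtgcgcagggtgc
Alas2: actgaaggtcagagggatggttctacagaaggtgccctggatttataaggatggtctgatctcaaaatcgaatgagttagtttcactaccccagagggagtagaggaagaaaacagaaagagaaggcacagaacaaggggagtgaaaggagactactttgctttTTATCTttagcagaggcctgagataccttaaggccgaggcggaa
Ppox: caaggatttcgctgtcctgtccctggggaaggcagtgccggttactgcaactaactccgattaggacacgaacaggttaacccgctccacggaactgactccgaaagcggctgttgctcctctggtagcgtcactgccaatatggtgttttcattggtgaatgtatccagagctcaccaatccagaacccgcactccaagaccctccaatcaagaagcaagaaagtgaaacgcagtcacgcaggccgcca
The capitals in Cpox are 2 overlapping matches, Alas2 has 1 match, and Ppox has none in this stretch. RefSeq windows of 300 bases around the start were searched for 8 of the 9 members (11 windows, since some genes have several starts). Fech was not searched. GATA letters were in the windows of 3 of these 8 members (Alas2, Uros and Cpox), compared with 29.8% of all 32851 promoter windows of the table. Neither window of Alas1, which was 3.20-fold lower in EpCAM+, held them, while a window of Uros, 1.43-fold lower, held 2 matches. Whether these letters relate to the fold differences was not tested. CACCC box letters (CCNCNCCC), which KLF1 and related factors bind, were in windows of all 8, and 49.5% of all windows held them. The E-box letters CAGGTA or CAGGTG, which ZEB1 binds, were in windows of Alas1 and Slc25a38 and in 29.5% of all windows. No member window held TGAGTCA, the core bound by NFE2 and BACH1, which 5.2% of all windows held. Windows differ in base composition and a member with several starts had more letters searched, so these shares are descriptions of the sequence.

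Every tested heme biosynthesis gene was lower in EpCAM+ than in EpCAM- cells. In all 8 the 4 EpCAM+ libraries lay below the 4 EpCAM- libraries without overlap, and all 8 passed the test (edgeR quasi-likelihood test, Benjamini-Hochberg adjusted p under 0.05). Among all tested genes, 20.8% passed as lower in EpCAM+, 21.8% passed as higher, and 20.0% were lower without overlap. The median log2 fold change (EpCAM+ minus EpCAM-) of the 8 genes was -0.93, beside 0.02 over all tested genes. The filter on low counts did not set this direction, since the lowest CPM of any of the 8 in any library was 20.3, in EpCAM+ Uros. In bulk RNA, fewer cells of a type and less RNA per cell cannot be told apart.

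**Figure D1:**
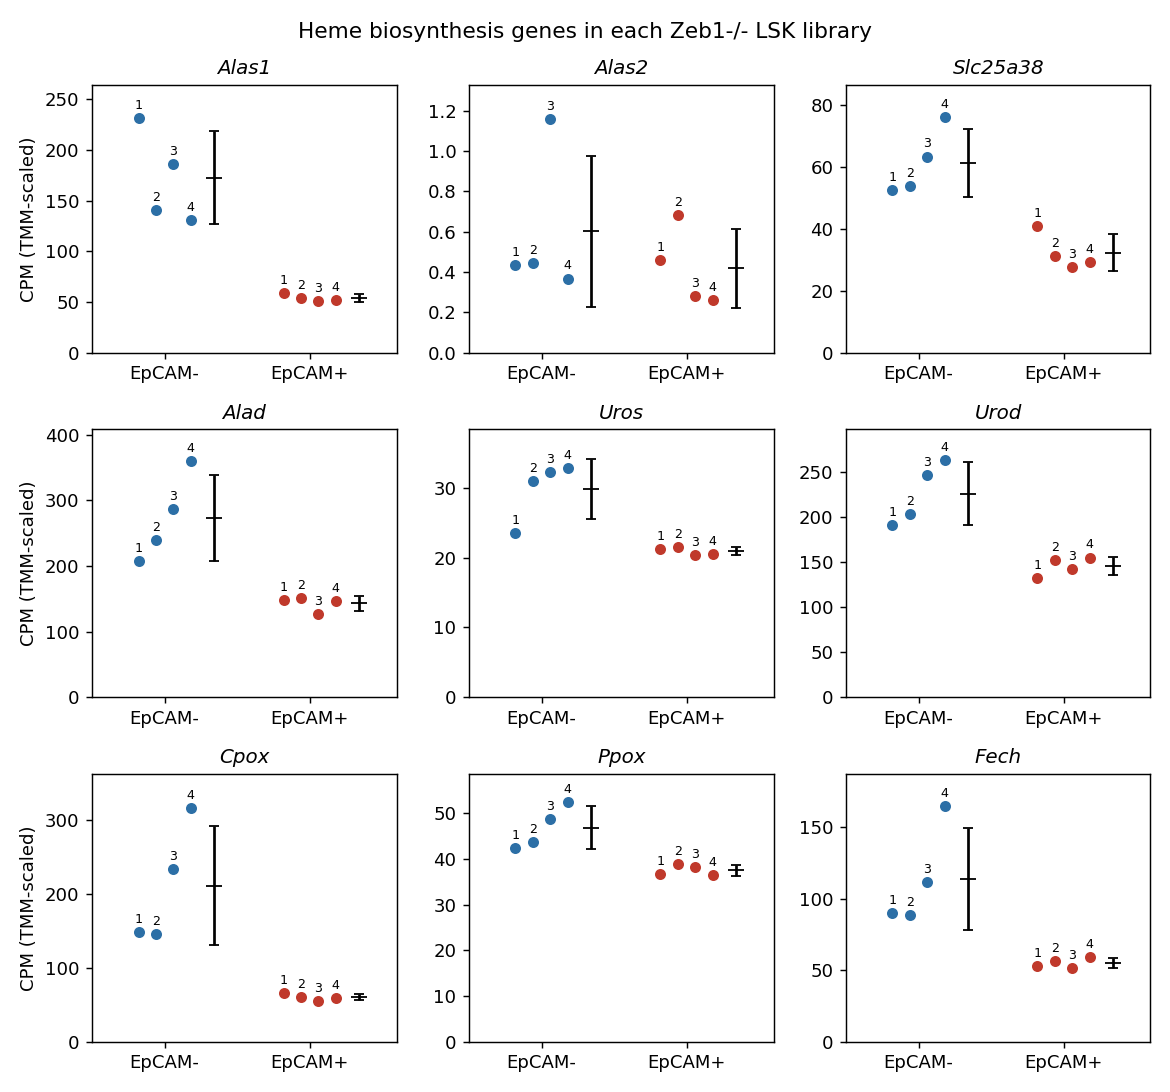
Each panel plots 1 gene in the 8 libraries, with CPM scaled by TMM on the y axis (each panel has its own scale, starting at 0) and the fraction on the x axis. Points are libraries with their replicate number, and bars show mean and SD of 4 libraries. Blue EpCAM- points lie above all red EpCAM+ points in every panel except Alas2, where the EpCAM+ range (0.259 to 0.680 CPM) and the EpCAM- range (0.368 to 1.16 CPM) overlap.

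The first step of the pathway joins glycine and succinyl-CoA into 5-aminolevulinate and sets the rate of synthesis in most cells. Alas1 (ENSMUSG00000032786, GRCm38 chr9:106233455-106248654), its ubiquitous form, was at 58.9, 53.6, 51.2 and 51.6 CPM in EpCAM+ libraries 1 to 4. In EpCAM- libraries 1 to 4 it was at 231, 141, 186 and 131 CPM. The EpCAM+ libraries were nearly level, while the EpCAM- libraries spread 1.76-fold between lowest and highest. The means of 53.8 ± 3.54 and 172 ± 45.9 CPM (SD, n = 4 each) differed 3.20-fold (log2 fold change -1.68, SE 0.16, edgeR adjusted p = 0.000165).

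Alas2 (ENSMUSG00000025270, chrX:150547375-150570638), the erythroid form, was close to the detection limit in both fractions. It had 7, 12, 5 and 4 counts in EpCAM+ libraries 1 to 4, and 7, 6, 17 and 5 counts in EpCAM- libraries 1 to 4. EpCAM- library 3 stood above the others, and the remaining 3 EpCAM- libraries lay inside the range of EpCAM+. It did not pass the filter on low counts, and its means of 0.419 ± 0.196 and 0.602 ± 0.374 CPM (SD, n = 4 each) were not distinguishable (exact two-sided permutation test, p = 0.514). Reads carried no molecular identifiers, so counts this low are limited at least by counting error. Fitted without the filter, Alas2 had a log2 fold change of -0.53 (edgeR adjusted p = 0.490).

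The reads at the first step therefore came almost wholly from Alas1. Alas2 made up 0.50% to 1.25% of the reads of both genes in EpCAM+ libraries and 0.189% to 0.619% in EpCAM- libraries, uncorrected for length. The log2 ratio of Alas2 to Alas1 counts was -7.00 ± 0.56 in EpCAM+ and -8.19 ± 0.69 in EpCAM- (SD, n = 4 each), a difference of 1.19. It did not pass the exact two-sided permutation test (p = 0.0857, where 0.0286 is the smallest p that 4 libraries against 4 allow). The difference was 1.49 without EpCAM- library 3, the only EpCAM- library whose ratio (-7.29) lay inside the EpCAM+ range. Leaving it out separates the fractions fully, so the exact permutation p of 0.0286 follows from that choice. It is the smallest p that 4 libraries against 3 allow, and no conclusion is drawn from it. ALAS2 synthesis is also set at translation, through an iron-responsive element in the leader of its mRNA, which read counts do not measure. The element is shown for that reason, at chrX:150547460-150547485 (GENCODE M21, GRCm38, plus strand), with the loop bound by iron regulatory proteins in capitals.
Alas2 iron-responsive element: ggttcgtcctCAGTGCagggcaacag

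Slc25a38 (ENSMUSG00000032519, chr9:120110374-120124504) is the mitochondrial carrier that brings glycine to the first enzyme, and its loss in humans causes a congenital sideroblastic anemia. It was at 40.9, 31.4, 27.8 and 29.2 CPM in EpCAM+ libraries 1 to 4, and at 52.5, 53.8, 63.5 and 76.3 CPM in EpCAM- libraries 1 to 4. EpCAM+ library 1 was the highest of its fraction and still below every EpCAM- library. The fold difference was 1.90 (log2 fold change -0.93, SE 0.15, edgeR adjusted p = 0.00113).

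The next enzymes work in the cytosol, where they assemble and trim the tetrapyrrole ring. Alad (ENSMUSG00000028393, chr4:62509169-62519918) joins aminolevulinate into porphobilinogen. It was at 149, 152, 126 and 146 CPM in EpCAM+ libraries 1 to 4 and at 208, 240, 287 and 359 CPM in EpCAM- libraries 1 to 4. The EpCAM+ libraries lay close together, and all were below the lowest EpCAM- library, with a 1.91-fold difference (log2 fold change -0.93, SE 0.15, edgeR adjusted p = 0.00108).

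Uros (ENSMUSG00000030979, chr7:133686243-133710072) closes the ring to uroporphyrinogen III. It was at 21.2, 21.5, 20.3 and 20.6 CPM in EpCAM+ libraries 1 to 4, and at 23.5, 30.9, 32.2 and 32.9 CPM in EpCAM- libraries 1 to 4. EpCAM- library 1 came nearest to the EpCAM+ libraries, and the difference was modest at 1.43-fold (log2 fold change -0.51, SE 0.11, edgeR adjusted p = 0.00512). Urod (ENSMUSG00000028684, chr4:116989965-116994413), which removes carboxyl groups from that ring, was at 132, 152, 143 and 155 CPM in EpCAM+ libraries 1 to 4. In EpCAM- libraries 1 to 4 it was at 191, 203, 246 and 263 CPM. The gap between the fractions was wider than the spread inside EpCAM+, with a 1.55-fold difference (log2 fold change -0.63, SE 0.11, edgeR adjusted p = 0.00141).

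The last 3 enzymes are mitochondrial. Cpox (ENSMUSG00000022742, chr16:58670292-58717636), coproporphyrinogen oxidase, had the largest fold difference of the 8 tested genes. It was at 66.1, 60.3, 55.3 and 59.6 CPM in EpCAM+ libraries 1 to 4 and at 149, 146, 233 and 316 CPM in EpCAM- libraries 1 to 4. EpCAM- libraries 3 and 4 stood well above 1 and 2, and even the lower pair exceeded every EpCAM+ library. The difference was 3.50-fold (log2 fold change -1.81, SE 0.23, edgeR adjusted p = 0.000349).

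Ppox (ENSMUSG00000062729, chr1:171275990-171281186), protoporphyrinogen oxidase, directly follows CPOX in the pathway and differed least. It was at 36.7, 39.0, 38.1 and 36.4 CPM in EpCAM+ libraries 1 to 4, and at 42.3, 43.7, 48.7 and 52.4 CPM in EpCAM- libraries 1 to 4. The fractions did not overlap, yet the difference was 1.25-fold (log2 fold change -0.32, SE 0.09, edgeR adjusted p = 0.0146). With library totals alone in place of TMM, the log2 fold change of Ppox was -0.23 and no longer passed (edgeR adjusted p = 0.0583).

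Fech (ENSMUSG00000024588, chr18:64456550-64489066), ferrochelatase, inserts iron and completes heme. It was at 52.8, 56.6, 51.8 and 59.5 CPM in EpCAM+ libraries 1 to 4, and at 90.0, 88.4, 112 and 164 CPM in EpCAM- libraries 1 to 4. EpCAM- library 4 was the highest by a wide margin, and the fold difference was 2.06 (log2 fold change -1.04, SE 0.18, edgeR adjusted p = 0.00143). Fech, Cpox and Alas1 were the members that both passed the test and were more than 2-fold lower, which 2.81% of all tested genes were. Whether members differ from one another in fold was not tested.

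Libraries with the same replicate number deviated together across genes, so the size of the differences was also read within each number. For Cpox the log2 difference was -1.17, -1.28, -2.08 and -2.41 in numbers 1 to 4, and for Alas1 it was -1.97, -1.39, -1.86 and -1.35. The widest gap was in number 4 for Cpox and in number 1 for Alas1, and number 3 came next for both. Blocking on this number in edgeR, all 8 still passed.

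Some of these genes overlap a gene on the opposite strand, and whether the counting used strand is not given in the sources used here. The annotated span of Uros shares 740 bases with Bccip, which had 2550 to 3175 counts in EpCAM+ and 3382 to 3999 in EpCAM-, and reads of that stretch cannot be told apart without strand. Ppox shares 907 bases with B4galt3 (458 to 498 counts in EpCAM+ and 342 to 456 in EpCAM-), and Alas2 lies wholly inside Apex2 (251 to 403 and 228 to 341 counts). The overlaps of Alas1 and Cpox are with genes of at most 5 counts in any library, and Slc25a38, Alad, Urod and Fech overlap no other gene of the table.

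Levels of different genes can be compared only per transcript length. By the deposited FPKM (fragments scaled to transcript length and library size), the EpCAM- order was Urod (331 ± 45.3), Alad (188 ± 41.6), Cpox (138 ± 50.4), Alas1 (105 ± 30.8), Slc25a38 (69.4 ± 11.2), Fech (37.9 ± 11.1), Uros (28.2 ± 3.50), Ppox (28.0 ± 2.35) and Alas2 (0.470 ± 0.292; mean ± SD FPKM, n = 4). Urod and Alad stood apart from one another beyond 1 SD, as did Slc25a38 from Fech and Ppox from Alas2, and the other neighbours in this order did not.

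In EpCAM+ the FPKM order was Urod (226 ± 17.6), Alad (104 ± 7.99), Cpox (41.7 ± 2.6), Slc25a38 (38.6 ± 6.60), Alas1 (34.5 ± 2.09), Ppox (23.8 ± 1.42), Uros (20.9 ± 0.884), Fech (19.5 ± 1.17) and Alas2 (0.347 ± 0.168; n = 4). Alas1 changed places with Slc25a38, and Fech fell behind Ppox and Uros. Cpox and Slc25a38 overlapped within 1 SD, as did Slc25a38 and Alas1, and Uros and Fech. The order depends on the length used, because the FPKM imply a length of 1601 bases for Alas1 where the table lists 6174. Urod and Alad took the top 2 places and Alas2 the last in both fractions under the FPKM, the listed length and the length of the principal GENCODE transcript, while the places between them moved.

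**Figure D2:**
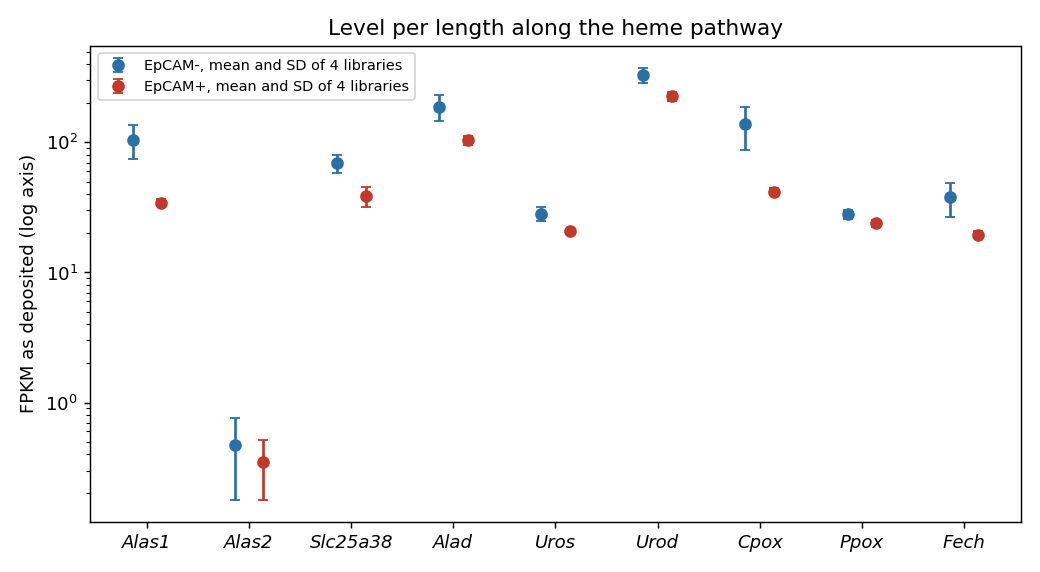
Deposited FPKM (y axis, log scale) of the 9 genes in pathway order (x axis), as mean and SD of 4 EpCAM- libraries (blue) and 4 EpCAM+ libraries (red). Urod is highest in both fractions (331 and 226 FPKM), and Alas2 lies far below all others (0.470 and 0.347 FPKM).

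The heme biosynthesis genes mostly varied less among the EpCAM+ libraries than among the EpCAM- libraries. The coefficient of variation of the 8 tested genes reached 18.3% in EpCAM+ and 38.4% in EpCAM-, and it was larger in EpCAM- for 7 of the 8, all but Slc25a38. Inside EpCAM-, library 4 was highest and library 3 next for 7 of the 8 genes. Alas1 was the exception, highest in library 1 and lowest in library 4. On the log2 CPM scale, Cpox lay -0.43, -0.45, 0.22 and 0.66 from the EpCAM- mean in libraries 1 to 4, and Alas1 lay 0.46, -0.25, 0.15 and -0.36 from it.

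Marker genes of other progenitors varied in the same libraries, in a comparison chosen after the values were seen. Klf1, an erythroid transcription factor, lay -0.53, -0.63, 0.47 and 0.68 from its EpCAM- mean in libraries 1 to 4. Elane, the neutrophil elastase gene, lay 1.08, -0.88, 0.35 and -0.55 from its mean, and Mpo, the myeloperoxidase gene, lay 0.24, -0.08, 0.09 and -0.24. All 8 lowered erythroid progenitor markers and all 5 lowered late erythroid markers were highest in EpCAM- library 4, where 7 of the 8 heme genes were also highest. Of the 5 lowered neutrophil and monocyte markers, 4 were highest in EpCAM- library 1, as was Alas1. Inside EpCAM+ the heme genes did not all share 1 order, and Klf1 was highest in library 4 (26.5 CPM). Urod and Fech were also highest in EpCAM+ library 4. Alas1, Slc25a38 and Cpox were highest in EpCAM+ library 1 and had the same order, and Alad, Uros and Ppox were highest in EpCAM+ library 2. Alas1, Slc25a38, Alad, Uros, Cpox and Fech were lowest in EpCAM+ library 3, while Urod and Ppox were not. The shares of all tested genes that were highest in EpCAM- library 4 or lowest in EpCAM+ library 3 were not counted. Each order rests on 4 libraries, and the part of such cells in the heme gene differences was not tested.

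**Figure D3:**
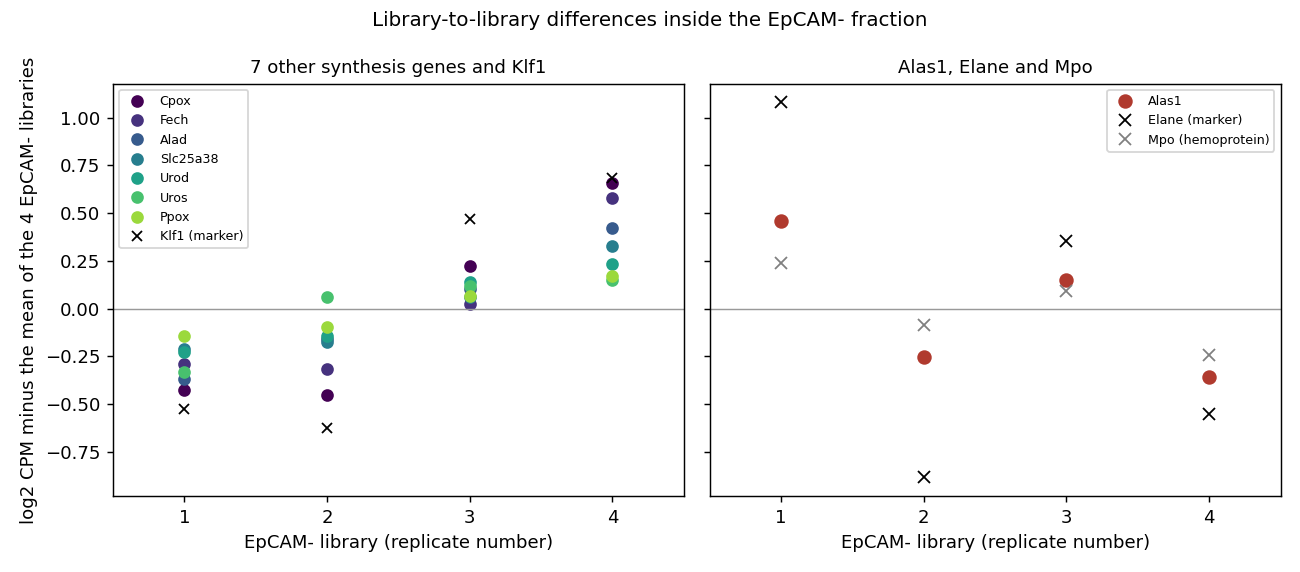
Log2 CPM minus the mean of the 4 EpCAM- libraries (y axis) in each EpCAM- library (x axis, replicate number). The left panel shows 7 heme biosynthesis genes (dots) and Klf1 (crosses), the right panel Alas1 (red dots), Elane and Mpo (crosses). Cpox runs from -0.45 to 0.66 and is highest in library 4, while Alas1 is highest in library 1 (0.46) and lowest in library 4 (-0.36).

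The genes whose log2 CPM followed Alas1 most closely over the 8 libraries were Hp (haptoglobin, Pearson r = 0.991), Cldn15 (0.990), Cebpe (a granulocyte transcription factor, 0.988), Rgcc (0.987) and Atp6ap2 (0.987). These correlations are a description, since the libraries fall into the 2 fractions and all 5 genes were lower in EpCAM+, with Hp at a log2 fold change of -4.59. With each fraction's mean subtracted, the closest included Cd274 (0.991), Stim1 (0.987), Tnip1 (0.981) and Atrn (0.973). No gene was on both lists. Alas2 had too few reads for such a list.

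Around synthesis, 52 genes of 6 pathway lists were tested, of which 28 were lower and 6 higher in EpCAM+. Among all tested genes, 20.8% were lower and 21.8% higher. Porphyrin and heme transport had the same direction as the enzymes: 7 of its 10 tested genes were lower, 0 were higher, and the median log2 fold change was -0.65. Tspo2, an erythroid membrane protein that moves porphyrin precursors, was at 1.69 ± 1.35 CPM in EpCAM+ and 68.8 ± 30.4 CPM in EpCAM- (log2 fold change -5.36, SE 0.47, edgeR adjusted p = 0.000125). Abcb10, a mitochondrial inner membrane transporter needed for heme synthesis, had a log2 fold change of -1.09 (edgeR adjusted p = 0.000271). Tmem14c, which helps protoporphyrinogen reach the mitochondrial matrix, had -1.02 (edgeR adjusted p = 0.000182). Flvcr1, the heme exporter, was also lower at -0.73 (edgeR adjusted p = 0.00212), as were Tspo (-0.57) and Hebp1 (-1.66, from at most 17 counts in any library). Abcg2, which exports porphyrins and marks stem cells, had 0.13 and did not pass (edgeR adjusted p = 0.415).

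In precursor and iron supply, 6 of 11 tested genes were lower and 0 higher, beside 20.8% and 21.8% of all tested genes. The median log2 fold change of this list was -0.32. Glrx5, which serves iron-sulfur cluster assembly, fell most, from 369 ± 64.9 CPM in EpCAM- to 164 ± 9.15 CPM in EpCAM+ (log2 fold change -1.17, SE 0.12, edgeR adjusted p = 0.000179). Shmt2, which makes glycine in the mitochondrion, had -0.69 (edgeR adjusted p = 0.000833), and Nfs1 (-0.56), Sucla2 (-0.37) and Suclg1 (-0.32) were also lower. The mitochondrial iron importers Slc25a37 and Slc25a28 did not pass, with log2 fold changes of 0.04 and 0.01. The glycine carrier Slc25a38 was thus lower while these iron carriers showed no detectable difference.

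Heme breakdown was mixed. Blvrb, a biliverdin reductase abundant in red cells, was at 36.8 ± 5.02 CPM in EpCAM+ and 285 ± 107 CPM in EpCAM- (log2 fold change -2.95, SE 0.25, edgeR adjusted p = 0.000118). Hmox2, the constitutive heme oxygenase, was higher in EpCAM+ at 180 ± 11.3 CPM, beside 130 ± 20.6 CPM in EpCAM- (log2 fold change 0.47, edgeR adjusted p = 0.00655). Hmox1, the inducible heme oxygenase, varied between libraries more than between fractions (log2 fold change 0.96, edgeR adjusted p = 0.355). In the fit that blocked on replicate number, Hmox1 passed at 0.73 (edgeR adjusted p = 0.0188), and Blvra passed at -0.20 (edgeR adjusted p = 0.0436) where it had not without the block (-0.21, edgeR adjusted p = 0.0741).

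Among genes that sense heme or control its synthesis, 2 of 10 were higher and 4 lower, beside 21.8% and 20.8% of all tested genes, so the share of higher genes was near that of all genes. Ppargc1a, a coactivator of ALAS1 transcription in liver, was low in both fractions and higher in EpCAM+, where Alas1 was lower. It had only 29 to 61 counts in EpCAM+ libraries and 3 to 15 in EpCAM- libraries. Its means were 2.69 ± 0.676 CPM in EpCAM+ and 0.540 ± 0.305 CPM in EpCAM- (log2 fold change 2.29, SE 0.39, edgeR adjusted p = 0.00145). Nr1d2, a heme-binding nuclear receptor, was also higher (0.53, edgeR adjusted p = 0.0160) but did not pass without EpCAM+ library 3. Eif2ak1, the heme-regulated kinase that slows translation when heme is short, was lower (-0.35, edgeR adjusted p = 0.00765), as were Aco1 (-0.50), the iron regulatory protein 1, and Lonp1 (-0.39), a protease that degrades ALAS1. Clpx, an unfoldase that acts on ALAS enzymes, had -0.22 (edgeR adjusted p = 0.0495) and passed in 4 of 15 alternative settings. Bach1, a repressor released by heme, did not pass (0.33, edgeR adjusted p = 0.139), nor did Ireb2, the iron regulatory protein 2 (-0.01).

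Among the users of heme, Cox10 (-0.57) and Cox15 (-0.43), which make heme a for cytochrome oxidase, were both lower (edgeR adjusted p = 0.000575 and 0.00930). Of 15 tested genes for heme-containing proteins other than globins, 8 were lower, beside 20.8% of all tested genes. Another 3 were higher, a share near the 21.8% of all tested genes. The median log2 fold change of the 15 was -0.43. Mpo, the heme enzyme of neutrophil granules, was at 781 ± 269 CPM in EpCAM+ and 10435 ± 1505 CPM in EpCAM- (log2 fold change -3.74, SE 0.23, edgeR adjusted p = 3.81e-05). The respiratory chain genes Cyc1 (-0.69), Cycs (-0.62), Sdhd (-0.56) and Sdhc (-0.32) were lower by less. Ptgs1, a cyclooxygenase, was higher (1.39, edgeR adjusted p = 0.000881), as was Cyb5a (0.39), and catalase (Cat) did not pass (-0.06, edgeR adjusted p = 0.546).

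**Figure D4:**
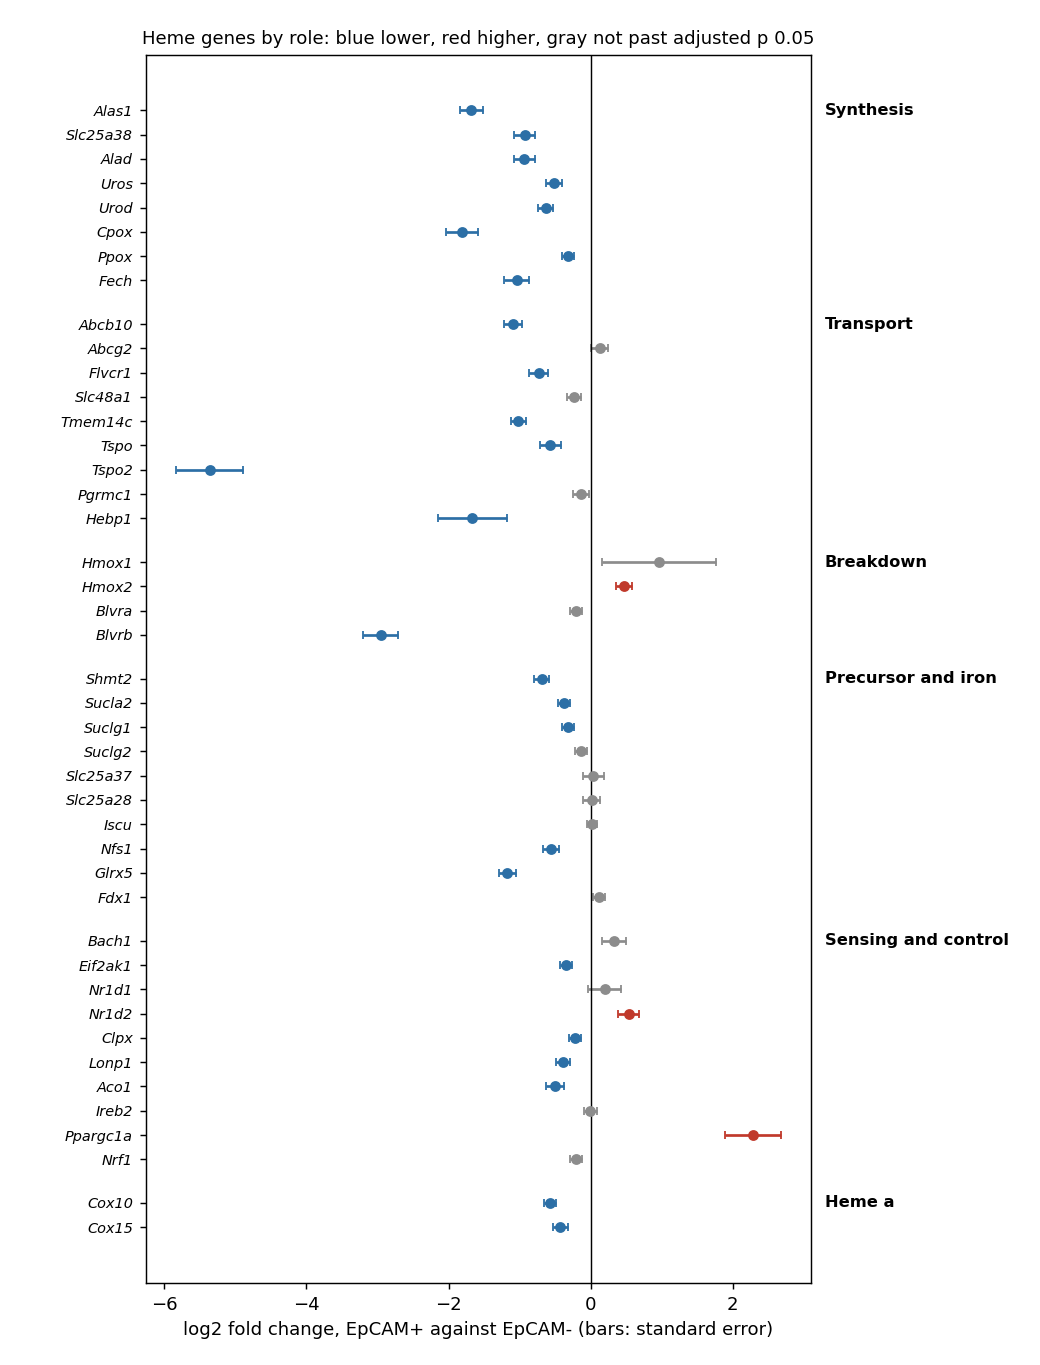
Log2 fold change of EpCAM+ against EpCAM- (x axis, with 1 standard error) for tested genes of synthesis, transport, breakdown, supply, control and heme a assembly (y axis). Blue marks genes lower and red genes higher in EpCAM+ at an edgeR adjusted p under 0.05, and gray the rest. All 8 synthesis genes are blue, from -1.81 (Cpox) to -0.32 (Ppox), Tspo2 lies lowest at -5.36, and Ppargc1a is highest at 2.29.

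Genes that mark other progenitors differed between the fractions together with the heme genes. Of 12 tested erythroid progenitor markers, 8 were lower in EpCAM+ and 1 was higher (Nfe2), beside 20.8% and 21.8% of all tested genes. Their summed level was 3055 to 4633 CPM in EpCAM+ and 5150 to 12214 CPM in EpCAM-. A pair of carbonic anhydrase genes, singled out after their values were seen, carried most of this sum: Car2 had a mean of 2763 CPM in EpCAM+ and 3063 CPM in EpCAM- and did not pass, and Car1 had 65.4 and 3443 CPM. Klf1 (-4.21), Ermap (-5.39), Epor (-2.72) and Tfrc (-2.41) were among the lower genes on the log2 scale. Late erythroid markers were scarce in both fractions, at a summed 11.6 to 43.1 CPM in EpCAM+ and 61.2 to 147 CPM in EpCAM-, with 5 of 8 lower and Hbb-bt higher. Slc4a1, the band 3 anion exchanger of mature red cells, had at most 4 counts in any library. TER119, the surface antigen of maturing erythroid cells, was among the lineage markers used to deplete the cells.

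Of 8 neutrophil and monocyte progenitor markers, 5 were lower in EpCAM+ and 0 higher, beside 20.8% and 21.8% of all tested genes. Their sums were 609 to 1187 CPM and 3572 to 7586 CPM in EpCAM+ and EpCAM-, respectively. Of 7 tested mast cell and basophil markers, 5 were lower, with sums of 72.9 to 98.2 CPM and 288 to 584 CPM. Cma1 had no reads in any EpCAM+ library. Of 7 megakaryocyte markers none was lower and 2 were higher (403 to 648 CPM in EpCAM+ and 127 to 356 CPM in EpCAM-).

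Other markers were higher in EpCAM+, as were 21.8% of all tested genes. Among stem cell genes 7 of 8 were higher (sums of 821 to 1186 CPM in EpCAM+ and 385 to 575 CPM in EpCAM-). B and plasma cell genes were higher in 4 of 6 cases (461 to 4041 CPM and 213 to 328 CPM). Dendritic cell genes were higher in 5 of 7 cases (741 to 8374 CPM and 213 to 382 CPM). In EpCAM+ the dendritic cell sum came mostly from Cd74, at 7586, 520, 1987 and 8006 CPM in libraries 1 to 4. The Cd74 mean was 4525 CPM, beside 64.2 CPM in EpCAM-. Jchain carried most of the B and plasma cell difference (means of 1093 and 0.131 CPM). It was at 3525, 221, 429 and 199 CPM in EpCAM+ libraries 1 to 4, so library 1 made most of that mean. Pax5, the defining B cell factor, had no reads in any library. The heme biosynthesis genes summed to 514 to 567 CPM in EpCAM+ and 947 to 1396 CPM in EpCAM-. The part of any of these cell types in the heme gene differences was not tested.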

How the data were processed

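Zeb1-/- EpCAM+ and EpCAM- LSK cells were profiled by RNA-Seq (SMART-Seq v4 amplification, paired ends). The authors aligned reads with STAR 2.6.1d to GRCm38 and deposited whole-number read counts per gene made with featureCounts 1.5.0-p3. The authors also deposited FPKM, used here for levels only, whose implied lengths differ from the deposited gene length, and 15 columns of their own comparisons (DESeq2 1.20.0), which were not used. Annotation release, strand setting and treatment of multi-mapping reads are not given in the sources used here.

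Counts were filtered with filterByExpr (minimum count 10), scaled by TMM and compared with edgeR 4.0.16's two-sided quasi-likelihood test (R 4.3.3), with Benjamini-Hochberg adjustment over all 13560 tested genes and a threshold of 0.05. Single values were compared by exact permutation. Alternatives were DESeq2 1.42.0, other scalings and filters, a replicate block and leaving out each library. The scripts were tested on simulated data. Depth per library sets a floor of 3 counts, which covers counting error only. All members, the pathway and marker lists and the rule for naming genes (all members, any tested pathway gene, up to 4 markers a list by adjusted p and any marker at 0 throughout a fraction, and the 5 most correlated genes) were chosen with earlier results of these data known. Genes of the sort are named as a check. In the lists, 2 symbols had no row in the table. Some listed genes count in the totals but are not reported by name or drawn here.

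The study gives 4 mice per genotype without saying which mouse each library came from, so p-values measure the spread between libraries. Deviations from the fraction means correlated at 0.205 to 0.356 between the 4 pairs of libraries with the same number and at -0.216 to 0.0396 between the 12 other pairs, so the numbers were taken to pair the libraries. The main fit and the exact two-sided permutation tests did not use this pairing, and the alternatives with a replicate block did. No replicates were duplicates of one another (chi-square per degree of freedom 10.3 to 97.4 over 12 pairs). Promoter sequences are RefSeq's (GRCm38.p6). Plots used matplotlib 3.10.9 under Python 3.11.15.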

Additional observations from a re-analysis of the deposited data

Results flagged for a closer look

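Alas2 in the EpCAM- fraction was singled out because 1 library stood apart from the other 3. EpCAM- library 3 had 17 counts (1.16 CPM) beside 5 to 7 counts in the others, and on the log2 scale its gap to the next library was 0.836 of the range of the 4 libraries, above Dixon's 95% critical value. It was the only one of 18 groups tested (9 genes in 2 fractions) past that value, and chance alone flags about 1 in 20 such groups. The cause was not tested.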

How the results depend on the processing

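Alas1, Slc25a38, Alad, Uros, Urod, Cpox and Fech were lower in EpCAM+ and passed in all 15 alternative settings, with log2 fold changes from -1.80 to -1.51 for Alas1, -1.96 to -1.55 for Cpox, -1.15 to -0.82 for Fech, -1.05 to -0.78 for Alad, -1.07 to -0.81 for Slc25a38, -0.71 to -0.55 for Urod and -0.62 to -0.43 for Uros. Ppox passed in 14 of 15 (-0.37 to -0.23) and missed the threshold with library totals alone. Upper-quartile factors and library totals moved the median of all tested genes to 0.11 and raised the share of higher calls from 51.2% to 63.6% and 62.7%. The Alas2 to Alas1 log2 ratio differed by 1.23 with a pseudocount of 2 (exact permutation p = 0.0286) and by 0.94 to 1.49 when each library was left out. With the replicate block it differed by 1.19 (exact sign-flip permutation p = 0.25, and 4 pairs cannot go below 0.125). Under the block, the genes called in heme breakdown were 4 in place of 2, Epx (-1.46), Cybb (-1.38) and Nrf1 (-0.20) also passed, and no heme biosynthesis call changed. Counted over other pathway genes and alternatives, whether a gene passed or not was the same in 742 cases, a call was lost in 22 and gained in 12. Cyba (0.38) passed in 10 of 15 settings and Hebp1 in 11 of 14. Alas2 could be fitted only without the filter, and its few counts limit any statement on it. The cause of these shifts was not tested.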
